A study of Rattus norvegicus with 6 samples.

Results

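The Notch receptors, their ligands and the Hes and Hey factors were followed in primary cells of the rat cortex that carried a vector for Math2 or a control vector. The group comprised every probe set whose platform gene symbol was Notch1, Notch2, Notch3, Dll1, Dll4, Jag1, Hes1, Hes5, Hes6 or Hey1. It held 13 probe sets of 10 genes, out of 31042 probe sets and 14217 genes on the array. Math2, now called Neurod6, belongs to the neuronal basic helix-loop-helix (bHLH) factors.

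There were 3 control and 3 Math2 arrays, numbered 1 to 3 in each group. Each 10-cm culture, from rat brain, received 13.3 µg of either the Math2 expression vector or the control vector, and both groups also received 2.7 µg of a vector for LNGFR, a low-affinity nerve growth factor receptor cut short inside the cell and used as a surface tag. Cells carrying the tag were selected after 24 h, and 50 ng of their total RNA was amplified and labelled for Affymetrix Rat Genome 230 2.0 arrays. The strain, the animals' age, the promoter of the vectors and the species of the Math2 insert are not given in the labels. The labels also do not say whether the samples came from separate cultures, so the p-values rest on the spread among these samples, and that spread may be technical.

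Notch signalling works between touching cells. A Delta or Jagged ligand on one cell pulls on a Notch receptor of its neighbour, the receptor is cut, and its inner part joins the DNA-binding protein RBPJ in the nucleus to switch on Hes and Hey genes. These encode bHLH repressors which, in the developing cortex, hold back the proneural bHLH factors that drive neuronal differentiation, so that a cell making much ligand keeps its neighbours as progenitors. Hes6 is the odd member, since it antagonizes Hes1 and favours differentiation.

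The promoters of the 3 Hes genes are shown because they carry the letters through which these genes are thought to be read. RefSeq promoter windows (GRCr8) were found for 8 of the 10 genes, all but Dll4 and Hey1, and the 250 bases before each gene's start were searched on both strands. The core letters of the RBPJ site, TGGGAA, are in capitals in Hes1 and Hes5. The E-box, CANNTG, the general bHLH motif, is in capitals in Hes6. The windows are chr11:84213046-84213295 on the minus strand for Hes1, chr5:170804327-170804576 on the plus strand for Hes5 and chr9:99451097-99451346 on the minus strand for Hes6, all written 5′ to 3′ along the gene.
Hes1: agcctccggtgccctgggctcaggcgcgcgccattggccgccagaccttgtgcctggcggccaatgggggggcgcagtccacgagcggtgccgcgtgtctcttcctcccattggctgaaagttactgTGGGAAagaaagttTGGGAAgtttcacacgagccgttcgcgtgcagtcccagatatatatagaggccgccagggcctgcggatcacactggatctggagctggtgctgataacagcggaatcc
Hes5: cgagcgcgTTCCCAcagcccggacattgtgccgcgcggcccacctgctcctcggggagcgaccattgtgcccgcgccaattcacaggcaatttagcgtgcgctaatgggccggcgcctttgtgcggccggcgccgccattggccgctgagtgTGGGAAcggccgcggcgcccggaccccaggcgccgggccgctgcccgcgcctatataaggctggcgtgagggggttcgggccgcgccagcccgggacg
Hes6: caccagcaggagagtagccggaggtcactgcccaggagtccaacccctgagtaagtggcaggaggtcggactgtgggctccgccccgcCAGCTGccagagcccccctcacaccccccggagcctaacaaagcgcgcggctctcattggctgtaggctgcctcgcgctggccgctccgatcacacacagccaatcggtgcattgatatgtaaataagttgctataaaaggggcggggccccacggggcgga
Hes1 held 2 RBPJ cores in the same direction, which began 123 and 109 bases before the start. Hes5 also held 2, at 242 and 98 bases, in opposite directions, and Dll1 was the other gene with a match. At least 1 core was present in 22.1% of all 33469 promoters of this length and 2 or more in 2.71%. Hes6 held no RBPJ core and 1 E-box, 162 bases before its start, and an E-box was also present in Notch2, Dll1 and Hes5. E-boxes are common, with a match in 65.5% of all promoters. The N-box, CACNAG, is the motif bound by Hes repressors. It had 4 matches in Hes1, 4 in Notch1 (of which 2 overlapped each other), 1 in Notch3 and 1 in Hes6. At least 1 N-box was present in 37.2% of all promoters and 2 or more in 8.02%. The E-box and the N-box share their opening CA, and no match of one lay on a match of the other in these windows. These matches describe letters only.

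The arrays gave 1 MAS5 signal per probe set, a linear intensity scaled so that the arrays share a common mean. Array medians ran from 102 to 120. No detection calls were given, so whether a signal below the median was above background is unknown. Spike-in transcripts had a geometric mean of 1893 to 2566 on the control arrays and 3875 to 6773 on the Math2 arrays (exact two-sided permutation p = 0.1, the smallest possible with 3 against 3). The Gapdh 3' to 5' ratio ran from 3.74 to 13.8 in the control group and from 6.0 to 8.48 in the Math2 group. The Neurod6 probe set gave 386, 207 and 973 in the control group, in the order of the array numbers, and 312, 167 and 1546 in the Math2 group. It may lie outside the transfected sequence, so it does not check the labels. Markers of neurons (summed signal 6480 to 16820 on control and 7005 to 23831 on Math2 arrays), of neural progenitors and radial glia (50796 to 57137 and 51874 to 80349) and of astrocytes (17953 to 23717 and 15060 to 24631) had 2 of 8, 1 of 7 and 1 of 8 measured genes below the median on every array. The 1 progenitor marker among these was Hes5, which is also a gene of the Notch group. Most of the progenitor sum came from Fabp7, Vim and Slc1a3. They were among the brightest 1% of tested probe sets, of which 99.5% were higher in Math2. The part of this shift of bright probe sets in the progenitor sum was not tested. All 8 microglial markers lay below the median on every array.

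The Notch genes fell into 2 classes of signal. The 6 probe sets of Notch1, Jag1, Hes1, Hes6 and Hey1 lay above the median on all 6 arrays, and 5 probe sets, of Notch2, Dll1, Dll4 and Hes5, lay below it on all 6. The remaining Notch3 and Dll4 probe sets lay below the median on 4 and 3 arrays. Signals of different probe sets are not on one scale, so this says how well each was measured and not which gene was more abundant.

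**Figure D1:**
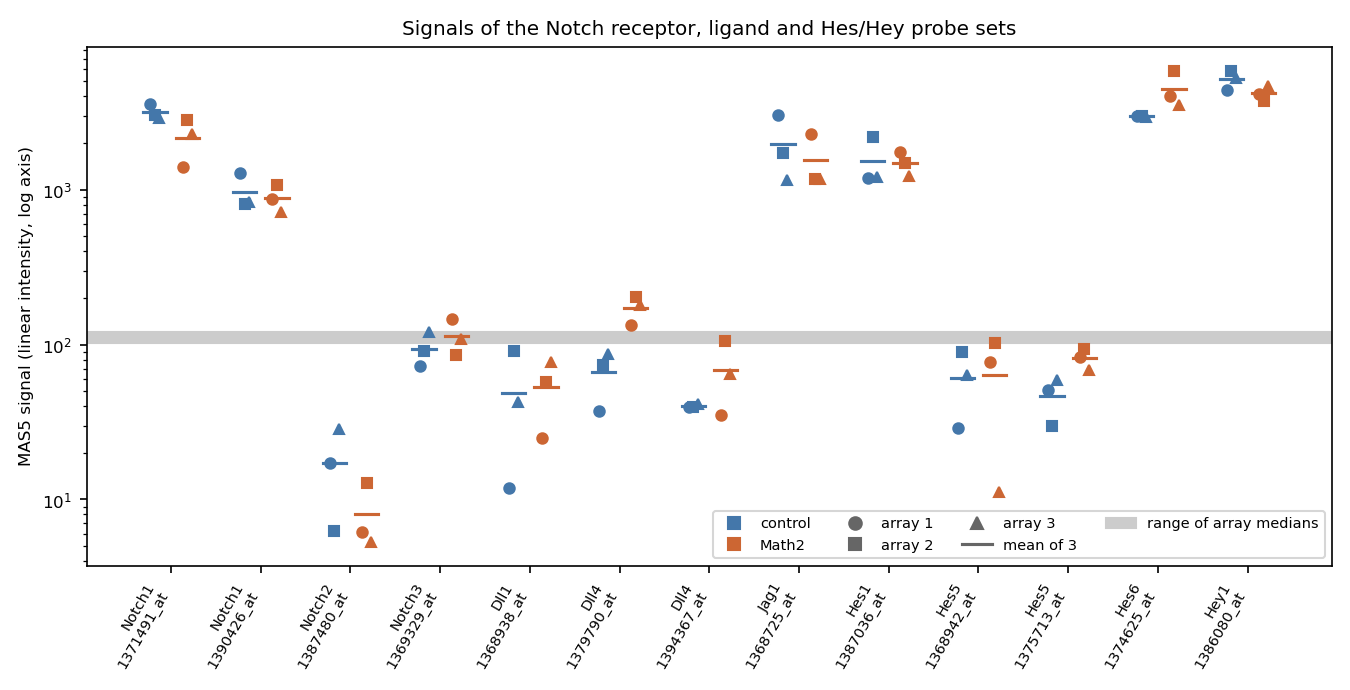
MAS5 signal (linear intensity, log axis) of the 13 probe sets on each of the 3 control (blue) and 3 Math2 (orange) arrays; symbols give the array number, bars the mean of 3 and the grey band the range of array medians, 102 to 120. Dll4 1379790_at, Hes5 1375713_at and Hes6 were higher on every Math2 array, Notch1 1371491_at was lower on every one, and in the other 9 the groups overlapped.

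The question was whether any of these genes differed with Math2. No probe set of the group passed the test across the array. Of the 13, 9 had a mean signal high enough to be tested, and limma called 0 of the 9 higher and 0 lower (Benjamini-Hochberg adjusted p = 1.00 for each), while it called 0% of all 18625 tested probe sets in either direction. With the array number as a block in limma, 0 of the 9 were called again (smallest adjusted p = 0.296, for Dll4), against 0.0161% of all tested, which were 3 probe sets of other genes. At an unadjusted p under 0.05 there were 3 of 9, Dll4, Hes6 and Notch1, both without and with the block, against 3.19% and 7.7% of all tested. The genes were chosen with earlier results of these data known, so those shares are a description.

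By position alone, 3 of the 13 probe sets were higher on every Math2 array than on any control array and 1 was lower on every one. Over all 31042 probe sets without a filter, 4.78% were higher and 4.31% lower in that way, and over the tested ones 3.7% and 4.3%. The 3 include the Hes5 probe set, which was tested only through its Math2 signals. Within the numbered pairs, 3 of the 9 tested probe sets were higher in 3 of 3 pairs and 2 were lower in 3 of 3, against 13.1% and 15.2% of all tested. The median log2 difference of the 9 was 0.0078, beside -0.031 for all tested probe sets.

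Among the receptors, Notch1, the main receptor of cortical progenitors, gave the clearest signal. Its probe set 1371491_at measured 3586, 3028 and 2897 on the control arrays in the order 1, 2, 3 and 1395, 2807 and 2272 on the Math2 arrays in the same order. The Math2 arrays all lay below the control arrays, with array 1 by far the lowest and array 2 close to the controls. Means were 3170 ± 366 and 2158 ± 713 (SD, n = 3). The log2 difference was -0.61 (SE 0.273, 95% interval -1.21 to -0.00068), or 1.52-fold lower on the scale of log2(signal + pseudocount), which understates changes of dim probe sets. It did not pass in limma (adjusted p = 1.00, or 0.562 with the block). The exact permutation p was 0.1, the smallest possible. Without Math2 array 1 the log2 difference was -0.32, the smallest on leaving out any array.

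A separate Notch1 probe set, 1390426_at, gave a smaller difference. It measured 1280, 809 and 826 on the control arrays and 873, 1072 and 720 on the Math2 arrays, and the groups overlapped. Its log2 difference was -0.11 (SE 0.281, 95% interval -0.74 to 0.51; limma adjusted p = 1.00), higher in 1 of 3 pairs, and it turned to 0.10 without control array 1. Both Notch1 probe sets were designed from records other than a RefSeq mRNA, and where on the transcript they lie is not known here.

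Notch2 and Notch3 were dim. Notch2 measured 17.2, 6.30 and 28.4 on the control arrays and 6.16, 12.8 and 5.31 on the Math2 arrays, below every median and too low to be tested. Notch3, a receptor best known from mural cells of blood vessels, measured 72.5, 90.3 and 120 on the control arrays and 146, 85.4 and 109 on the Math2 arrays. The groups overlapped, and the log2 difference of 0.24 (SE 0.367, 95% interval -0.57 to 1.06; limma adjusted p = 1.00) came from pair 1, since pairs 2 and 3 stood at -0.075 and -0.13. Summed mural cell markers ran from 6163 to 9600 on control and from 7493 to 9218 on Math2 arrays, with 3 of 8 below the median on all arrays, but most of that sum was Tagln, at 5675 to 8687 on the control arrays. The mural marker Pdgfrb, a growth factor receptor, measured 62.9, 37.2 and 54.8 on the control arrays and 147, 159 and 293 on the Math2 arrays, without overlap. The groups overlapped for every other mural marker measured. The part of Pdgfrb in the Notch3 values was not tested.

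The ligand gene Dll4 had the largest difference of the group. Dll4 encodes a Delta ligand best known from the endothelium, where it marks the leading cells of sprouting vessels. Its probe set 1379790_at measured 37.4, 73.8 and 87.1 on the control arrays in the order 1, 2, 3 and 135, 202 and 180 on the Math2 arrays in the same order. The groups did not overlap, and the control signals lay below the median of their own array while the Math2 signals lay above it. Means were 66.1 ± 25.7 and 172 ± 34.6 (SD, n = 3). The log2 difference was 1.34 (SE 0.393, 95% interval 0.47 to 2.21), which is 2.53-fold once the pseudocount is added. Of all tested probe sets, bright and dim together, 0.258% had a larger difference in either direction. The gene was chosen with earlier results of these data known, so that rank is a description. Probe set 1379790_at was higher in 3 of 3 pairs, by 1.66, 1.37 and 0.99 (log2). The difference stayed between 1.02 and 1.56 on leaving out any array.

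Even so, Dll4 did not pass across the array (limma adjusted p = 1.00, or 0.296 with the block; unadjusted p = 0.00618 and 0.00182; exact permutation p = 0.1, the smallest possible). Its other probe set, 1394367_at, was dim throughout, at 39.4, 39.8 and 41.4 on the control arrays and 35.1, 105 and 64.6 on the Math2 arrays. There Math2 arrays 2 and 3 were high and array 1 was not, and it lay below the filter, with a log2 difference of 0.56. Of 9 endothelial markers measured, 7 lay below the median on all arrays (Cldn5, Emcn, Kdr, Pecam1, Tek, Tie1 and Vwf). The summed signal of all 9 was 627 to 1240 on control and 515 to 902 on Math2 arrays, most of it from Flt1 and Esam. In bulk samples, fewer cells of a type and less RNA per cell cannot be told apart.

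Jag1, a Jagged ligand made by progenitors and glia, varied with the array number. It measured 3042, 1723 and 1162 on the control arrays in the order 1, 2, 3 and 2282, 1174 and 1174 on the Math2 arrays in the same order. Array 1 was the highest in both groups. The log2 difference was -0.32, with an SE of 0.378 in limma and 0.203 once the array number was a block (95% interval -1.15 to 0.52, and -0.76 to 0.12 with the block; adjusted p = 1.00 and 0.774). It turned to 0.050 without control array 1. Most neuronal markers also followed the number. Dcx measured 4048, 1447 and 4984 on the control arrays and 2987, 1638 and 8194 on the Math2 arrays, highest on array 3 of each group. Map2 was instead highest on control array 1, and Syt1 on Math2 array 2. The other measured neuronal markers were highest on array 3 of both groups. The part of neuronal markers in the Notch values was not tested.

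Dll1, the Delta ligand that differentiating cortical neurons present to progenitors, could not be followed. It measured 11.8, 90.9 and 42.4 on the control arrays and 24.9, 57.2 and 76.7 on the Math2 arrays, below every median, and was not tested.

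Of the Hes and Hey genes, Hes6 stood apart by its even control signals. It measured 2996, 2972 and 2947 on the control arrays in the order 1, 2, 3 and 4023, 5802 and 3518 on the Math2 arrays in the same order. Every Math2 array was higher than every control array, with array 2 the highest. Means were 2972 ± 24.6 and 4448 ± 1200 (SD, n = 3). The log2 difference was 0.55 (SE 0.227, 95% interval 0.045 to 1.05), which is 1.46-fold on that scale. It was higher in 3 of 3 pairs but did not pass in limma (adjusted p = 1.00, or 0.502 with the block). The exact permutation p was 0.1, the smallest possible. The difference was 0.34 without Math2 array 2 and between 0.54 and 0.70 on leaving out any other array.

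Hes6 and Hey1 were among the bright probe sets, which as a whole were shifted on these arrays. The tested probe sets between the 90th and 99th percentile of signal, with mean signals of 2726 to 11195, leaned towards the Math2 arrays, where 64.7% were higher, and their median log2 difference was 0.074. With quantile normalization, which removes this shift, that median was -0.020, and the differences were 0.50 for Hes6 and -0.38 for Hey1. The mean signal of the differing Notch1 probe set was just below that class, where the median was -0.060, and its difference with quantile normalization was -0.60. The brightest 1% of tested probe sets, which held no probe set of the Notch group, were shifted more. Of these, 99.5% were higher in Math2, with a median log2 difference of 0.43, or -0.024 with quantile normalization.

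Hes5, a classical Notch target of neural stem cells, was dim in both probe sets. Probe set 1375713_at measured 50.9, 29.9 and 59.2 on the control arrays and 82.6, 94.2 and 68.5 on the Math2 arrays. The groups did not overlap, and the log2 difference was 0.75 (SE 0.394, 95% interval -0.12 to 1.62; limma adjusted p = 1.00, or 0.715 with the block; exact permutation p = 0.1, the smallest possible). All 6 signals lay below the array medians, so the size is uncertain. It was tested only through its Math2 signals, since the control mean on the log2 scale, 5.71, was below the filter of 6.07. Probe set 1368942_at, designed from a RefSeq mRNA, measured 29.1, 89.8 and 63.8 on the control arrays and 77.1, 103 and 11.2 on the Math2 arrays. It was the lowest of all on Math2 array 3, overlapped between the groups and was below the filter, and its log2 difference was -0.18.

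Hes1, the repressor that keeps progenitors undifferentiated, was well above the array medians and gave a difference near 0. It measured 1182, 2178 and 1208 on the control arrays in the order 1, 2, 3 and 1749, 1487 and 1216 on the Math2 arrays in the same order. The Math2 signals lay within the control range. The log2 difference was 0.0078 (SE 0.291; limma adjusted p = 1.00), and its 95% interval ran from -0.64 to 0.65, so changes up to these sizes are not excluded by these arrays. Its sign changed with the array left out, from -0.14 without control array 1 to 0.30 without control array 2.

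Hey1, a Hes-related repressor, measured 4385, 5870 and 5218 on the control arrays and 4120, 3760 and 4658 on the Math2 arrays. Math2 array 3 lay above control array 1, so the groups overlapped, but each Math2 array was below its numbered control, with log2 differences of -0.090, -0.64 and -0.16 in pairs 1, 2 and 3. The log2 difference was -0.30 (SE 0.20, 95% interval -0.74 to 0.14; limma adjusted p = 1.00, or 0.748 with the block).

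**Figure D2:**
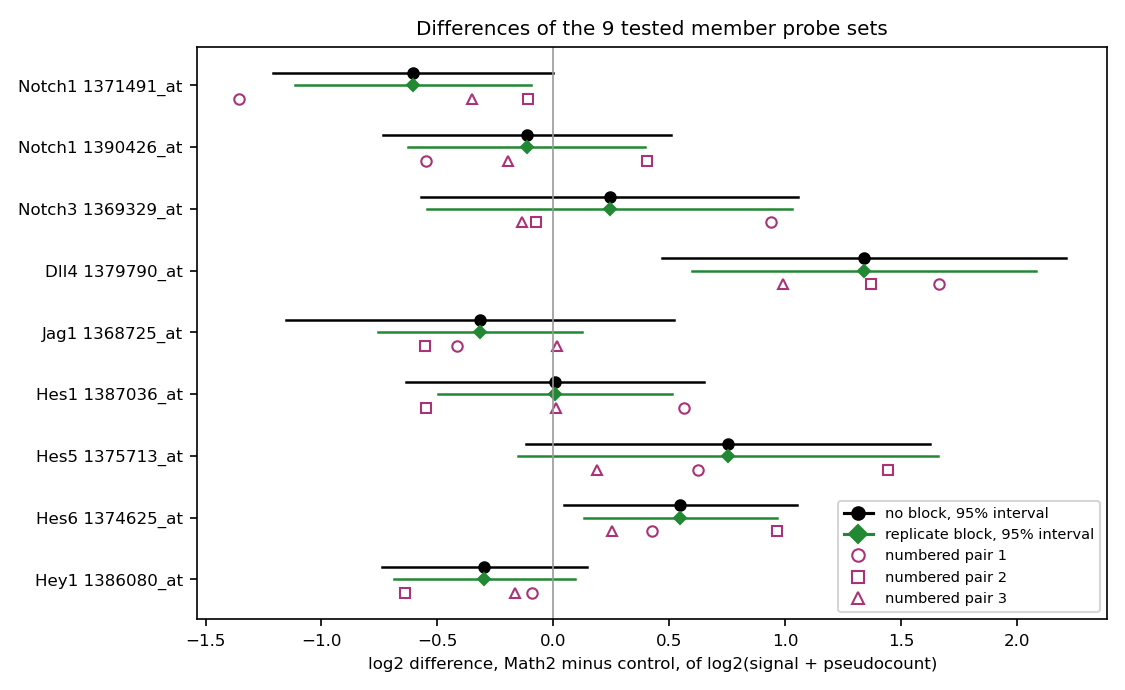
Log2 difference (Math2 minus control, of log2(signal + pseudocount)) of the 9 tested probe sets: circles and black lines give the fit without a block and its 95% interval, green diamonds and lines the fit with the array number as a block, and open symbols the 3 numbered pairs. All 3 pairs lie above 0 for Dll4 (0.99 to 1.66), Hes5 and Hes6 and below 0 for Notch1 1371491_at and Hey1. For Hes1, Notch3, Jag1 and Notch1 1390426_at the pairs lie on both sides.

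The Hes and Hey genes did not all point one way. Hes6 was higher on all Math2 arrays, Hes1 had a difference near 0, and Hey1 was lower within every pair. Both Hes5 probe sets were dim. Hes5 1375713_at was higher on all Math2 arrays but was tested only through its Math2 signals. Hes5 1368942_at was below the filter and overlapped between the groups, with a log2 difference of -0.18. None of these differences passed the test, and the differences between the genes were not tested.

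The rest of the pathway was read from a fixed list of 50 further genes, of which 39 had a probe set and 11 were not analysed here. Of their 65 probe sets 44 were tested, and limma called 0 without the block and 0 with it (smallest adjusted p = 0.456 with the block). At an unadjusted p under 0.05 there were 2 of 44 without and 3 with the block, against 3.19% and 7.7% of all tested probe sets. The 3 include Heyl 1391969_at, which was tested only through its control signals. Higher signals in Math2 were found for 18 and lower for 26, against 8517 and 10108 of all tested. The median log2 difference was -0.051, beside -0.031 for all tested. The groups did not overlap for 6.82% of them, all lower in Math2, beside 8% of all tested probe sets.

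The other receptors and ligands were dim. All 3 Notch4 probe sets lay between 3.31 and 65.7, Dll3 between 7.72 and 78.4 and Jag2 between 18.5 and 58.3, below every median. Of the other Hes and Hey genes, Hes2 and Hes3 were also below every median. Hey2 measured 672, 917 and 692 on the control arrays and 501, 787 and 462 on the Math2 arrays, a log2 difference of -0.40 (SE 0.293) with overlapping groups. Heyl, a Hey factor known from mural cells, was dim, and both of its probe sets had lower means in Math2: 1391969_at measured 90.1, 87.2 and 113 on the control arrays and 11, 102 and 43.3 on the Math2 arrays, and 1390882_at measured 28.6, 33.3 and 66.5 and then 8.63, 15.4 and 9.92. For the first the log2 difference was -1.15 (SE 0.583; limma adjusted p = 1.00, or 0.611 with the block). It was tested only through its control signals, since its Math2 mean on the log2 scale, 5.55, was below the filter of 6.07, and the second probe set was below the filter altogether.

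No gene of the machinery that cuts the receptor and acts in the nucleus passed the test. Among the processing genes the smallest unadjusted p belonged to Adam17, a protease that sheds membrane proteins (log2 difference -0.36), Rfng, a fringe glycosyltransferase that modifies Notch (-0.39), and Psenen, a subunit of the gamma-secretase that cuts it (0.20). Rbpj, the DNA-binding partner of Notch, was bright in probe set 1381969_at, at 5042, 4378 and 4347 on the control arrays and 4152, 3592 and 5192 on the Math2 arrays. Its 3 probe sets had log2 differences of 0.061, -0.10 and -0.055, each with overlapping groups.

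Maml2 and Dtx4 had probe sets that were lower on every Math2 array. Maml2, a coactivator of the Notch complex, measured 378, 289 and 330 on the control arrays and 243, 195 and 148 on the Math2 arrays in probe set 1396088_at, and differed by -0.76 on the log2 scale (SE 0.308; limma adjusted p = 1.00, or 0.506 with the block). The brightest Maml2 probe set, 1392600_a_at, had -0.15 with overlapping groups. A dim one, 1380530_at, had -0.53 without overlap and was tested only through its control signals, with a Math2 log2 mean of 5.92 against the filter of 6.07. The remaining Maml2 probe set, 1379455_at, was below the filter and had 0.56 with overlapping groups. Hdac1, a histone deacetylase found in the repressor complex, had -0.33 in probe set 1388761_at and 0.13 in 1396820_at. In probe set 1373114_at, Dtx4, a Deltex ubiquitin ligase acting on Notch, measured 298, 629 and 502 on the control arrays and 249, 259 and 227 on the Math2 arrays. It differed by -0.87 on the log2 scale (SE 0.328; limma adjusted p = 1.00, or 0.456 with the block). The 3 Math2 signals were close together and all below the controls. The other Dtx4 probe sets, 1377982_at and 1398705_at, were below the filter and overlapped between the groups, with log2 differences of -1.49 and -0.69. Fbxw7, which marks the Notch fragment for destruction, and Nedd4, a ubiquitin ligase, had -0.54 (1386794_at) and 0.16 (1371314_at) in the probe sets with the smallest p. The Nedd4 value turned to -0.017 with quantile normalization, and another Fbxw7 probe set, 1379332_at, had -0.0018.

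**Figure D3:**
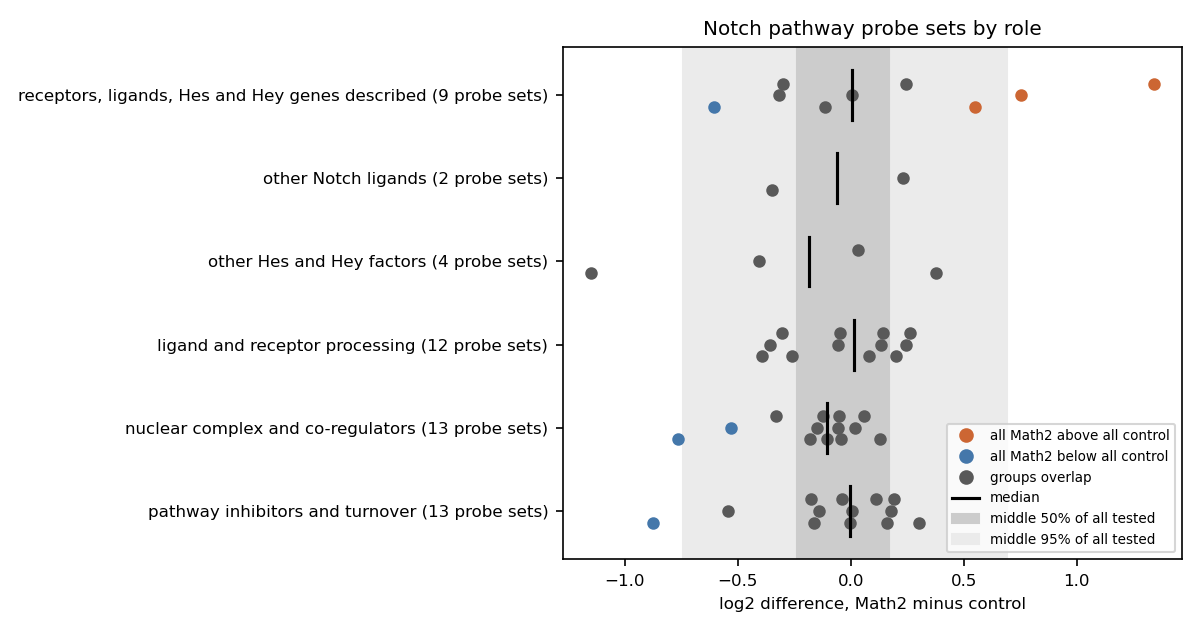
Log2 difference (Math2 minus control) of each tested probe set of the Notch pathway by role; dots are probe sets, orange or blue where all Math2 arrays lie above or below all control arrays, black bars are medians, and the grey bands hold the middle 50% and 95% of all 18625 tested probe sets. Dll4 at 1.34, Hes5 at 0.75, Heyl at -1.15, Maml2 at -0.76 and Dtx4 at -0.87 lie outside the wider band, which runs from -0.74 to 0.69, and none passed the test; Hes5 and Heyl entered the test only through the group in which each was higher.

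**Figure D4:**
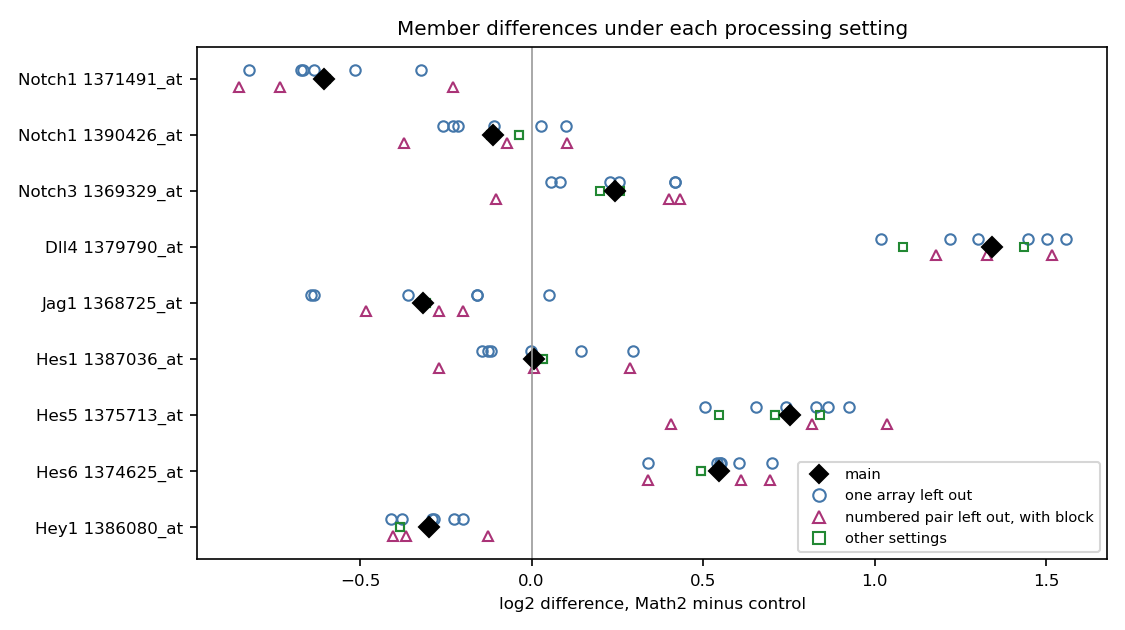
Log2 difference (Math2 minus control) of the 9 tested probe sets under the main processing (black diamonds), with each array left out (circles), with the block and each numbered pair left out (triangles) and under the other settings (squares). Dll4 stays between 1.02 and 1.56, Hes6 between 0.34 and 0.70 and Notch1 1371491_at between -0.85 and -0.23, while Hes1, Jag1, Notch3 and Notch1 1390426_at reach both sides of 0 in at least 1 setting.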

How the data were processed

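The deposited values are signal intensities of probe sets, unlogged, 1 for each array. They were made with MAS5, per the submitters' processing notes, which name no version; the sources used here give neither its settings nor detection calls. Trimmed by 2% at each end, the mean signal was 500.2 on all arrays, so values were used as scaled, and MAS5's background subtraction makes low signals unreliable. Precision is limited by having 3 arrays in each group.

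The array's 57 control probe sets, out of 31099, were left out. The platform annotation, which is old, gave 1 symbol to 20826, several to 436 and none to 9780; 20758 matched RefSeq genes of GRCr8 by gene number and 0 changed. No probe set with several symbols held one of the 10 genes. Signals were taken as log2(signal + 7.42), the pseudocount being the 10th percentile. The test took in probe sets whose mean log2 value reached the 40th percentile, 6.07, and was made with limma 3.58.1 in R 4.3.3 (lmFit, eBayes with trend), two-sided, Benjamini-Hochberg adjusted over all 18625, threshold 0.05. The fit was tested on simulated data. Single array values and single probe sets had an exact permutation test over all 6 arrays. It took no account of the array numbers, so its smallest possible p of 0.1 holds for unpaired arrays only.

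Arrays sharing the number 1, 2 or 3 deviated from their group means together. Their correlations over probe sets were 0.326, 0.476 and 0.372, above the limit of 0.1. Between arrays of unlike number they ran from -0.460 to 0.104. The highest of these, control 1 with Math2 3, was also just above the limit. The numbers were taken as pairing the samples, from the data and not the labels. Genes and lists were chosen with earlier results of these data known. Named are every probe set of the 10 genes, of Notch4, Dll3, Jag2, Hes2, Hes3, Hey2, Heyl and Rbpj, and the 3 probe sets with the smallest p in each other pathway list. Marker lists used the brightest probe set per gene. Those for fibroblasts and meninges (summed signal 6683 to 9535 on control and 6597 to 7914 on Math2 arrays) and the oligodendrocyte lineage (6324 to 11030 and 6929 to 10096) overlapped between groups, and that for microglia was 276 to 325 and 196 to 246. Alternatives changed the pseudocount, filter, normalization, block and arrays used.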

Additional observations from a re-analysis of the deposited data

How the results depend on the processing

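Across 18 alternatives, 0 of the tested Notch, ligand, Hes and Hey probe sets and 0 of the wider pathway passed in any. Of 159 recomputed differences 149 kept their direction, among them all for Dll4, Hes5, Hes6, Hey1 and Notch1 1371491_at, and 10 reversed; none of these had passed a test, and the cause was not tested. The other Notch1 probe set, 1390426_at, was at 0.027 when Math2 array 3 was left out and at 0.10 both without control array 1 and with the block and pair 1 left out, and ran from -0.26 to 0.10 over single arrays left out. Notch3 was at -0.10 with the block and pair 1 left out. Jag1 was at 0.050 without control array 1 and ran from -0.64 to 0.050. Hes1 ran from -0.14 to 0.30, with -0.14 and -0.13 when control array 1 or 3 was left out and -0.12 and -0.0014 when Math2 array 1 or 2 was, and was at -0.27 with the block and pair 1 left out.

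Over the whole array 0 probe sets were called without the block in any setting. With the replicate block 3 were higher and 0 lower, and with the block and quantile normalization 4 and 2. With the block and 1 numbered pair left out, 4, 51 and 15 were higher without pair 1, 2 and 3 and 0 to 63 lower. The block without a filter, chosen after seeing the data, called 0 of the 13 probe sets. The block changed no call of a named gene. Notch2, Dll1 and the dimmer Dll4 and Hes5 probe sets were below the filter, and whether they exceeded background is unknown.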
